A study of Mus musculus with 6 samples.

Results

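Actb and Actg1 encode the beta and gamma actins of non-muscle cells, and Actr3 encodes the actin-related protein Arp3. These 3 genes are represented by 3 transcripts, 1 each, of the 1037 transcripts and 847 matched genes in a deposited table of CD8+ T cells. They were chosen by gene identity, with their measured levels under daunorubicin and under solvent already known, so their difference between the groups is described here without a test. The cells were primary wildtype CD8+ T cells from mouse spleen. They were kept in serum-containing medium and exposed for 2 h either to daunorubicin (DNR), an anthracycline that inserts into DNA and blocks topoisomerase II, or to its control DMSO. There were 3 DMSO and 3 DNR samples, called biological replicates in the labels with no word on whether each had its own mouse. The sources used here do not state the age of the mice, the dose of DNR or any stimulation of the cells. Values are FPKM, sequenced fragments counted per kilobase of message and scaled to the depth of the library, so levels can be compared between genes.

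Actin monomers assemble into filaments that give T cells their shape, drive migration and build the contact with a target cell. Arp3 and its partner Arp2 form the core of the Arp2/3 complex, which starts new filaments as branches on the sides of old ones. Free actin monomers also hold back the coactivators of serum response factor (SRF). This factor binds the CArG box, a short AT-rich DNA element, and many actin genes are among its targets. Actb is also widely used as a reference gene on the assumption that its level is steady.

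The beta and gamma actin messages are near copies of each other in their coding part, which bears on how reads can be assigned to them. The first 60 coding bases of each are shown, 5′ to 3′, from GENCODE M21 transcripts on GRCm38. Capitals mark the 9 positions at which they differ. That of Actb lies in exon 2 of 6 on the minus strand at chr5:142905627-142905686, and that of Actg1 in exon 2 of 6 on the minus strand at chr11:120348032-120348091.
Actb: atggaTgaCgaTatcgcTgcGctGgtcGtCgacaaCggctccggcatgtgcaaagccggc
Actg1: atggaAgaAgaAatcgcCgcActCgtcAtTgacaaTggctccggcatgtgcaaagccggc
Over the 1125 coding bases (stop codon not counted) 997 were identical, which is 88.6%, and the longest identical run was 62 bases. No longer run was shared anywhere in the full transcripts. Actr3 shared at most 11 bases in a row with Actb and 12 with Actg1. The sources used here do not say how the authors assigned reads that fit both actins, so some exchange between the values of Actb and Actg1 is possible.

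The RefSeq promoter table of GRCm38.p6 matched 2 of the 3 genes, Actg1 and Actr3. The 250 bases before each start site are shown 5′ to 3′, since the CArG box is the element by which SRF is known to recognise actin promoters. Capitals mark a CArG box. The Actg1 window is chr11:120348496-120348745 and the Actr3 window is chr1:125435728-125435977, both on the minus strand.
Actg1: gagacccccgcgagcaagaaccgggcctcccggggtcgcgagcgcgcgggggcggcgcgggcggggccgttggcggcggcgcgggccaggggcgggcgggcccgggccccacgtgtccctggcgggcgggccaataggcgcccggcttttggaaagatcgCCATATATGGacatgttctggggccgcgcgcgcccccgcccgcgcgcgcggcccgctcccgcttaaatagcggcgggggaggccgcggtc
Actr3: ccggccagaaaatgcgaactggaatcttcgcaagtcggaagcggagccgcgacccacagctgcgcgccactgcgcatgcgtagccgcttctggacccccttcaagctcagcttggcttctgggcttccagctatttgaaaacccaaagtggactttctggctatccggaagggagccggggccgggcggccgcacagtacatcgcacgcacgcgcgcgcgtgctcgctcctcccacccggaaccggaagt
The Actg1 window held 1 CArG box, 90 to 81 bases before the start site, and the Actr3 window held 0. Of all 32851 windows of this length in the table, 482 (1.47%) held a CArG box on either strand. The Actg1 window also held 1 CCAAT motif and 6 matches to GGGCGG, of which the Actr3 window held 0 and 1. These motifs occurred in 33.8% and 32.7% of all windows, searched on both strands. GGGCGG was more frequent in the table, in 64.0% of windows of genes called higher only and 62.6% of those called lower only. Neither window held TATAAA, which 12.4% of windows did. The windows were rich in G and C, at 79.2% for Actg1 and 64.0% for Actr3, against a median of 52.4%. Among genes of the table called in 1 direction only, 2 of 150 windows of those that rose and 5 of 198 windows of those that fell held a CArG box. The matches are descriptions of sequence, and binding was not measured.

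A few facts of the whole table bear on every value. It holds log2(FPKM + 1), and its summed FPKM were 13501 to 13669 in DMSO and 14023 to 14395 in DNR. Read totals are not recoverable from FPKM, so the depth is unknown. Of 388 transcripts with at least 1 FPKM in at least 3 samples, 387 (99.7%) passed the limma test at an adjusted p of 0.05, 167 (43.0%) as higher and 220 (56.7%) as lower in DNR. Their groups of samples failed to overlap in 387 (99.7%). With a background this high, the table has probably been assembled from transcripts that differed between these same samples. Actb, Actg1 and Actr3 were 3 of the called transcripts without overlap, and nothing is read from that. The adjusted p-values given below for other transcripts share this limit. They describe the values and are no independent evidence of a difference. Of 12 fixed T cell and CD8 markers 0 were listed, so T cell identity cannot be checked from the table. The macrophage marker Csf1r was listed, at a mean of 61.5 FPKM in DMSO and 73.3 in DNR. The columns carry codes: O with a number fits the DMSO descriptions, and D with a number was read as DNR because each DMSO sample already had a column. All directions depend on that reading.

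Beta-actin was the most abundant transcript of the table and, as deposited, slightly higher in DNR. Actb (NM_007393; GRCm38.p6 chromosome 5, 142903115 to 142907976) had FPKM of 1060, 1045 and 1021 in DMSO samples 1 to 3 and of 1107, 1123 and 1177 in DNR samples 1 to 3. Every DNR sample was above every DMSO sample, by at least 47.3 FPKM, and the highest was DNR sample 3. The means were 1042 ± 19.5 and 1136 ± 36.7 FPKM (SD, n = 3), which is 8.97% more in DNR, or 0.12 ± 0.03 (SE) on the log2(FPKM + 1) scale. Actb ranked first in all 6 samples.

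Gamma-actin followed in second place in all 6 samples, and its difference as deposited was larger. Actg1 (NM_009609; chromosome 11, 120345687 to 120348495) had FPKM of 890, 854 and 836 in DMSO and of 964, 955 and 1031 in DNR, in the order of the samples. The lowest DNR sample was 65.1 FPKM above the highest DMSO sample, and DNR sample 3 was again the highest. The means of 860 ± 27.6 and 983 ± 41.2 FPKM (SD, n = 3) differ by 14.3%, a log2 difference of 0.19 ± 0.04 (SE).

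Actr3 had a lower level and the largest relative difference of the 3 genes. Its listed transcript (NM_001205386; chromosome 1, 125392905 to 125435727) had FPKM of 102.9, 96.8 and 91.8 in DMSO and of 122.7, 141.1 and 120.3 in DNR. The groups were 17.5 FPKM apart at their closest, and here DNR sample 2 was the highest. The means were 97.2 ± 5.53 and 128.0 ± 11.4 FPKM (SD, n = 3), which is 31.8% more in DNR and a log2 difference of 0.39 ± 0.07 (SE). Within each sample its rank among all listed transcripts was 23, 23 and 26 in DMSO and 19, 16 and 19 in DNR. The reference holds 3 RefSeq transcripts of Actr3 and 2 each of Actb and Actg1, of which 1 per gene was in the table, so each value is of that transcript and not of the whole gene.

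**Figure D1:**
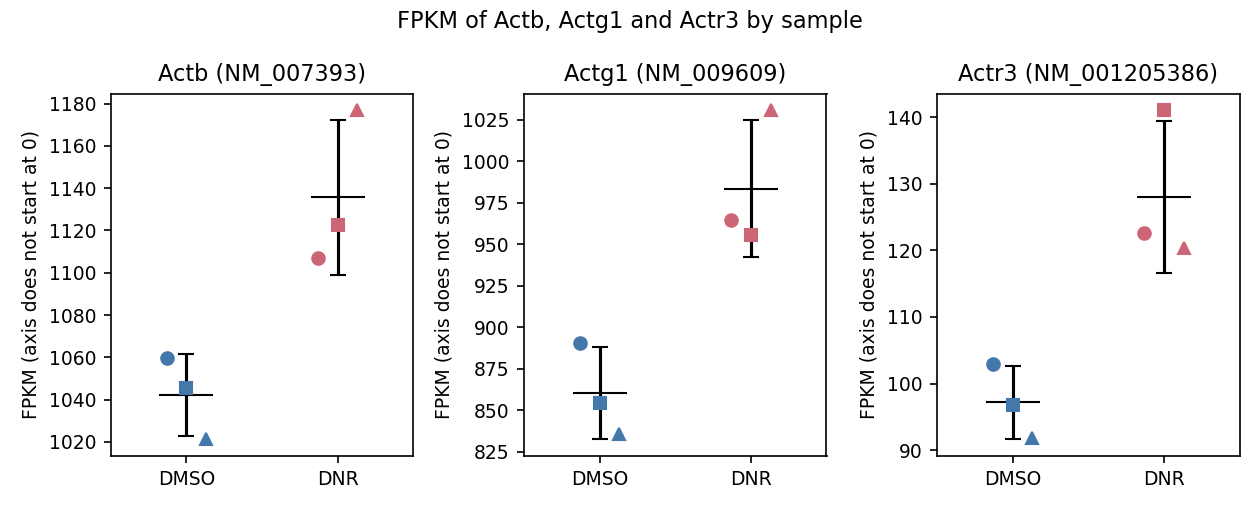
FPKM of Actb, Actg1 and Actr3 in each sample (circle, square and triangle for samples 1, 2 and 3), with the group mean and SD (n = 3) as a bar; the vertical axes do not start at 0. In each panel the 3 DNR samples lie above the 3 DMSO samples, DNR sample 3 highest for both actins and DNR sample 2 highest for Actr3.

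In the DMSO group the 3 genes ordered the samples alike: sample 1 was highest and sample 3 lowest for each. In the DNR group they did not. Sample 3 was highest for Actb and Actg1 and lowest for Actr3. The summed FPKM of the table without the 3 genes had the same order in DMSO, at 11616.1, 11595 and 11552.5. That sum was also highest in DNR sample 3, at 12066.7, so these orders are not particular to the actin genes. With DNR sample 3 left out the log2 difference was lowest for Actb, at 0.10, and for Actg1, at 0.16. For Actr3 it was lowest without DNR sample 2, at 0.32.

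Together the 3 transcripts took 15.0%, 14.7% and 14.4% of the summed FPKM under DMSO and 15.6%, 15.6% and 16.2% under DNR. The share was higher in every DNR sample, and the group means were 14.7 ± 0.29% and 15.8 ± 0.32% (SD, n = 3). Actb alone held 7.67 ± 0.10% in DMSO and 7.99 ± 0.17% in DNR. The share of Actg1 went from 6.33 ± 0.17% to 6.92 ± 0.23% and that of Actr3 from 0.72 ± 0.04% to 0.90 ± 0.08%. No share overlapped between the groups, but neither did the FPKM of 387 of the 388 tested transcripts (99.7%). Shares of other transcripts were not computed, so nothing is read from the lack of overlap. The summed FPKM of the table itself were 630 higher in DNR on average, a net difference of 4.64% in which rises and falls cancel. The 3 transcripts together were 248 higher, equal in size to 39.3% of this net difference. Because of the cancelling, that is not their part of all rises, and H3f3b alone was 147 higher. Without the 3 transcripts the sum was still 3.30% higher in DNR. The shares are of the listed transcripts and not of all messages in the cells.

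The balance between the 3 messages also differed between the groups. The ratio of Actg1 to Actb was 0.840, 0.817 and 0.818 under DMSO and 0.871, 0.851 and 0.876 under DNR. It was higher in each DNR sample, with means of 0.825 ± 0.013 and 0.866 ± 0.013 (SD, n = 3). The ratio of Actr3 to Actb was 0.097, 0.093 and 0.090 in DMSO and 0.111, 0.126 and 0.102 in DNR, again without overlap. Ratios of other pairs of transcripts were not computed, so nothing is read from the lack of overlap. That of Actr3 to Actg1 was 0.113 ± 0.003 in DMSO and 0.131 ± 0.016 in DNR. A ratio within a sample does not depend on how samples are scaled to each other, so the higher level of Actg1 and Actr3 relative to Actb holds under any scaling by 1 factor per sample. It does not show that Actb itself was steady.

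**Figure D2:**
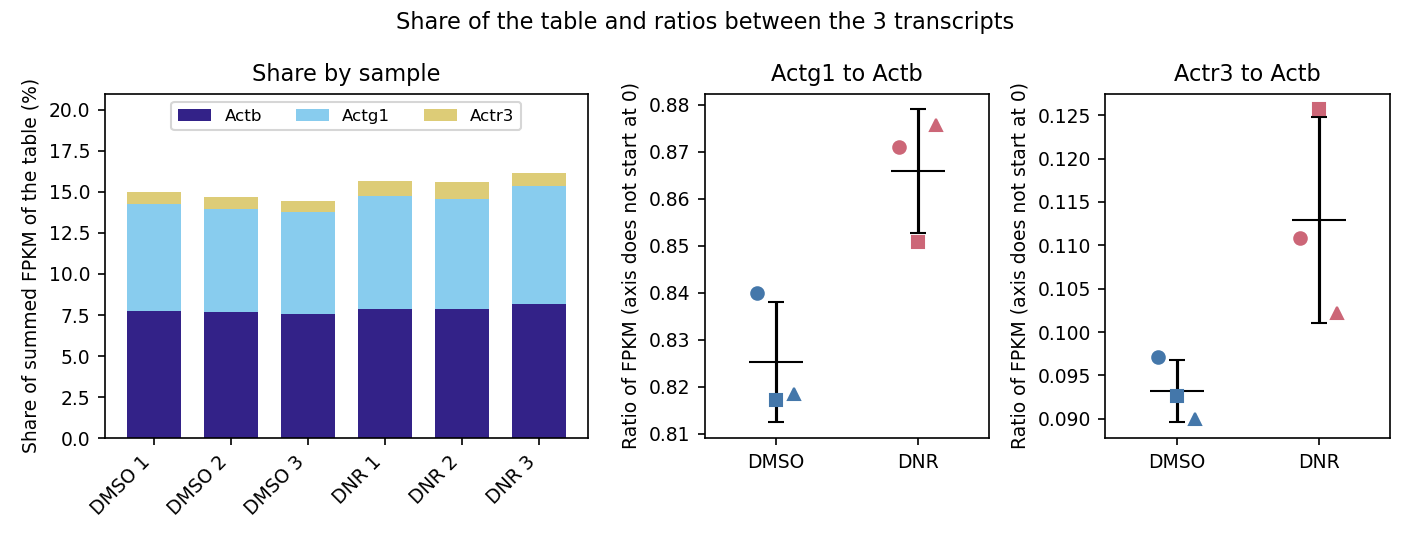
Left, share of each transcript in the summed FPKM of the table for each sample, as stacked bars from 0; middle and right, ratio of FPKM within each sample (circle, square and triangle for samples 1, 2 and 3), with group mean and SD (n = 3) on axes that do not start at 0. The 3 transcripts together take 14.4% to 15.0% in DMSO and 15.6% to 16.2% in DNR, and both ratios are higher in every DNR sample.

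How large the differences of the 3 genes were depended on scaling, because the median change over all 388 tested transcripts was -0.22 and not 0. When all samples were shifted to 1 common median, DNR values move up by 0.18 on the log2 scale, and the differences of Actb, Actg1 and Actr3 became 0.31, 0.38 and 0.58. With quantile normalization, Actb and Actg1 had a difference of 0, which their first and second rank in every sample fixes by construction, and Actr3 was at 0.28. Relative to the summed FPKM of the table, an alternative added after the values were seen, Actb was higher by 0.058 and Actg1 by 0.13. Both scalings can be estimated only on this list, and which is right was not tested.

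The 3 genes were also set beside other abundant transcripts. Of the 22 transcripts with a mean of at least 100 FPKM over the 6 samples, 18 were higher and 4 lower in DNR as deposited. The 18 include the 3 genes themselves. Changes ran from -0.13 to 0.39 on the log2 scale, with a median of 0.18. Of all 388 tested transcripts 43.0% were called higher and 56.7% lower (limma), and nothing is read from the count of 18. By size of the difference Actr3 ranked 1, Actg1 11 and Actb 18 of these 22. Actr3 had a DMSO mean of 97.2 FPKM and entered the set through its higher level in DNR, so nothing is read from its rank. The next largest were Snx5, a sorting nexin of endosomes, at 0.34, and H3f3b, which encodes the histone variant H3.3, at 0.29. The transcripts closest to the actins in level were H3f3b at 665 FPKM in DMSO and 811 in DNR, Hspa8, a constitutive heat shock protein, at 506 and 556, and Psap, the precursor of the saposins, at 452 and 522. Another Psap transcript, at a mean of 17.7 FPKM over the 6 samples, went the other way, with a log2 change of -0.81. The rest of the 10 most abundant were Eif1 (416.8 and 470.7), H2-D1 (325.9 and 365.9), Ucp2 (244.9 and 295.9), H2-T23 (249.7 and 282.0) and Eif3f (181.8 and 207.9 FPKM in DMSO and DNR). Each of these 10 had a higher mean in DNR. Over all 388 tested transcripts, the size of the difference ranked 235 for Actr3, 351 for Actg1 and 383 for Actb.

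**Figure D3:**
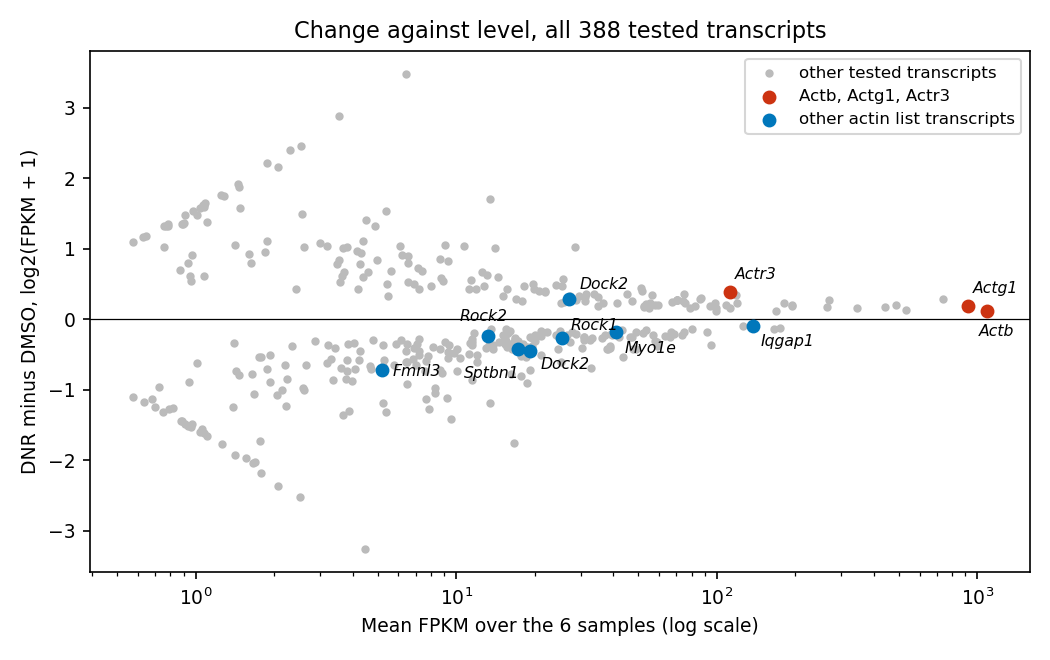
Difference between DNR and DMSO on the log2(FPKM + 1) scale against mean FPKM over the 6 samples (log scale) for the 388 tested transcripts, with Actb, Actg1 and Actr3 in red and other transcripts of the actin cytoskeleton lists in blue. The 3 genes lie at the abundant end above 0, and 7 of the 8 other actin list transcripts lie below 0 as deposited, of which Iqgap1 and Myo1e are above 0 with samples shifted to a common median.

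The other genes of actin filament turnover were mostly missing from the table, and most of those present went the other way as deposited, though Iqgap1 and Myo1e did not with samples shifted to a common median. Of 192 further genes in 9 lists of the actin cytoskeleton, 13 were listed, by 14 transcripts, and 8 transcripts of 7 genes were tested. As deposited 1 rose and 7 fell (limma), with a median change of -0.25 beside -0.22 for all tested transcripts. That all 8 passed is the background of the table, in which 99.7% of tested transcripts passed and 56.7% were called lower. With samples shifted to a common median 1 rose, 1 fell and 6 did not pass, while 273 of all 388 (70.4%) passed. With quantile normalization 1 rose, 2 fell and 5 did not pass, while 320 of 388 (82.5%) passed. No other actin was listed, nor any other of the 11 genes of the Arp2/3 list. The lists of monomer-binding proteins, such as profilin and cofilin (13 genes), and of capping and severing proteins (30 genes) had 0 listed. What these genes did cannot be read from the table.

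Fmnl3, a formin, which elongates unbranched filaments, had the largest fall of these lists. Its FPKM were 5.87, 7.24 and 6.89 under DMSO and 3.56, 4.37 and 3.12 under DNR, with no overlap (log2 change -0.72 ± 0.14 SE; limma, adjusted p = 0.0037). It was below 0 under both scalings, at -0.53 and -0.68 (limma, adjusted p = 0.015 and 0.0038).

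Among proteins that crosslink filaments or link them to the membrane, a transcript of Sptbn1, the beta chain of spectrin, fell from a mean of 19.9 ± 1.44 to 14.7 ± 1.78 FPKM (SD, n = 3; limma, adjusted p = 0.0060). Iqgap1, a scaffold that binds actin, Rac1 and Cdc42, was the only one of the 8 above 100 FPKM. Its FPKM were 141.9, 139.4 and 143.1 under DMSO and 134.1, 131.8 and 133.3 under DNR, lower in every DNR sample (log2 change -0.09 ± 0.03 SE; limma, adjusted p = 0.012). With a common median Iqgap1 was at 0.10 and no longer past the threshold (limma, adjusted p = 0.053). The fall of Sptbn1 did not pass under either scaling (limma, adjusted p = 0.11 and 0.079).

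The motor gene Myo1e, a membrane-binding myosin, fell from 43.8 ± 0.64 to 38.6 ± 0.49 FPKM (SD, n = 3; limma, adjusted p = 0.0037), and its change was 0.01 with a common median and -0.04 with quantile normalization (limma, adjusted p = 0.90 and 0.38). Rock1 and Rock2, the kinases by which RhoA activates myosin, fell from 28.0 ± 0.60 to 23.1 ± 1.78 and from 14.4 ± 0.37 to 12.1 ± 0.89 FPKM (limma, adjusted p = 0.0060 and 0.016). With a common median neither passed (limma, adjusted p = 0.38 and 0.61), and with quantile normalization Rock1 did and Rock2 did not (0.0070 and 0.20).

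Dock2, the activator of Rac in lymphocytes, had 2 tested transcripts that went in opposite directions. NM_033374 fell from 22.2 ± 2.14 to 16.1 ± 2.25 FPKM and XM_017314862 rose from 24.3 ± 2.53 to 29.8 ± 0.59 FPKM (SD, n = 3; limma, adjusted p = 0.0065 and 0.0081). Added together they came to 46.6 ± 4.0 FPKM under DMSO and 45.9 ± 1.66 under DNR, a difference smaller than the spread within groups. The fall did not pass under either scaling (limma, adjusted p = 0.076 and 0.070), while the rise did.

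The listed transcripts below the filter included those of Abi1, Abi3 and Wipf1, which act with the WAVE and WASP activators of Arp2/3, of the crosslinker gene Flna, and of the focal adhesion gene Pxn. Abi1 was at 2.88 FPKM in DMSO sample 3 and listed at 0 elsewhere. Abi3, Wipf1, Flna and Pxn had 0 FPKM throughout DMSO and reached 0.99 to 3.37 FPKM, each in 1 of the DNR samples.

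**Figure D4:**
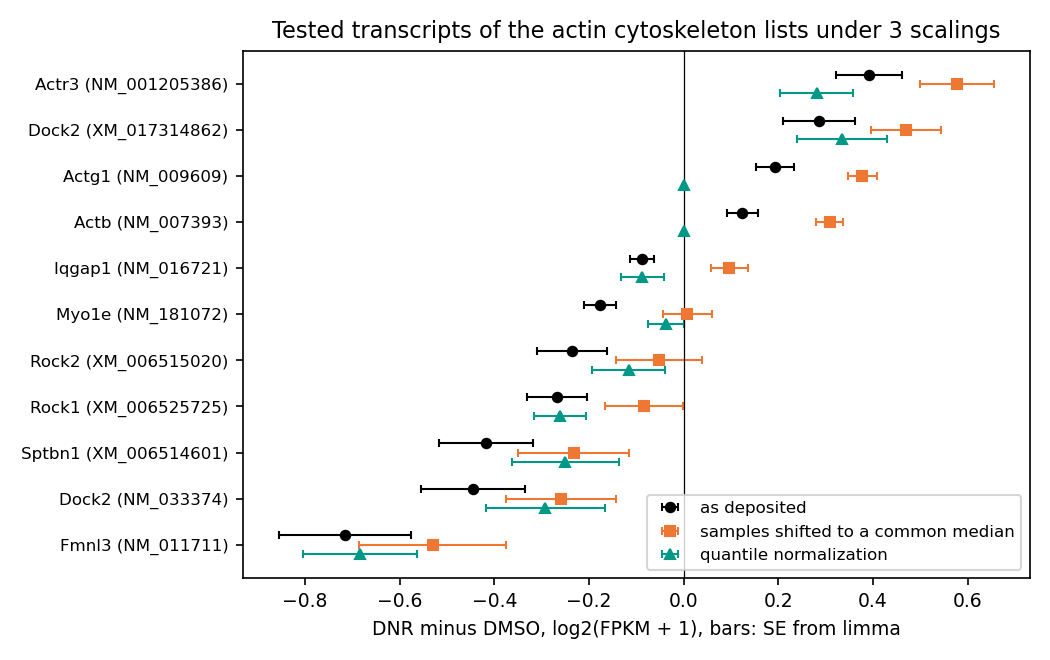
Difference between DNR and DMSO, with its SE from limma, for the 11 tested transcripts of the actin cytoskeleton lists as deposited (black circles), with samples shifted to a common median (orange squares) and with quantile normalization (green triangles). Actr3 is above 0 under all 3 scalings and Fmnl3 below 0, while quantile normalization puts Actb and Actg1 at 0 and the common median puts Iqgap1 above 0.

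Of genes known to respond to SRF, 4 of 27 in the list were in the table: the 2 actins and the immediate-early genes Ier2 and Egr2. Ier2 had means of 100.9 ± 3.58 and 115.9 ± 5.95 FPKM (SD, n = 3). It rose by 0.20 ± 0.05 (SE) on the log2 scale, close to the value of Actg1 (limma, adjusted p = 0.0060). Egr2, listed as 2 identical entries, fell from 33.7 ± 2.03 to 28.0 ± 1.53 FPKM (limma, adjusted p = 0.0062). With quantile normalization Ier2 was at 0.01 (limma, adjusted p = 0.85), and with a common median the fall of Egr2 did not pass (limma, adjusted p = 0.43). The SRF gene itself and its coactivators Mrtfa and Mrtfb were not listed. Of 17 common reference genes other than Actb, 0 were listed, so no other reference is at hand to set Actb against. The other major cytoskeletal polymer was represented by 1 of 16 tubulin genes. Tubb4b had FPKM of 93.2, 88.5 and 89.1 under DMSO and 102.1, 103.6 and 113.8 under DNR, with DNR sample 3 the highest as for both actins (log2 change 0.23 ± 0.05 SE; limma, adjusted p = 0.0042).

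Likeness was measured as the root mean square distance over the 6 samples between profiles of log2(FPKM + 1) minus the DMSO mean, among 321 transcripts of named genes above 0 in all samples. The 5 nearest to Actb were Hspa8 (distance 0.028), Tmbim6 (0.030), Klf6 (0.038), Tob2 (0.043) and Srsf6 (0.045). The 5 nearest to Actg1 were Rnf19b (0.027), Eif3f (0.033), Rsrp1 (0.035), Tubb4b (0.036) and Unc45a, which encodes a myosin chaperone (0.037). Actr3 had no neighbour as close. Its nearest were Pnisr (0.048), the nuclear receptor gene Nr4a2 (0.067), Cxxc1 (0.075), Hexim1, an inhibitor of transcription elongation (0.077), and Plk3, a stress-responsive kinase (0.084). The actins were not each other's nearest: Actg1 was number 10 for Actb and Actb number 16 for Actg1, at a distance of 0.052. Actr3 was number 72 for Actb and number 64 for Actg1. All of these profiles share their libraries and the same group difference. Only the DMSO mean is subtracted, so the distances also carry the size of each difference between DNR and DMSO. The members were chosen with that difference known, and nothing is read from the ranks.

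**Figure D5:**
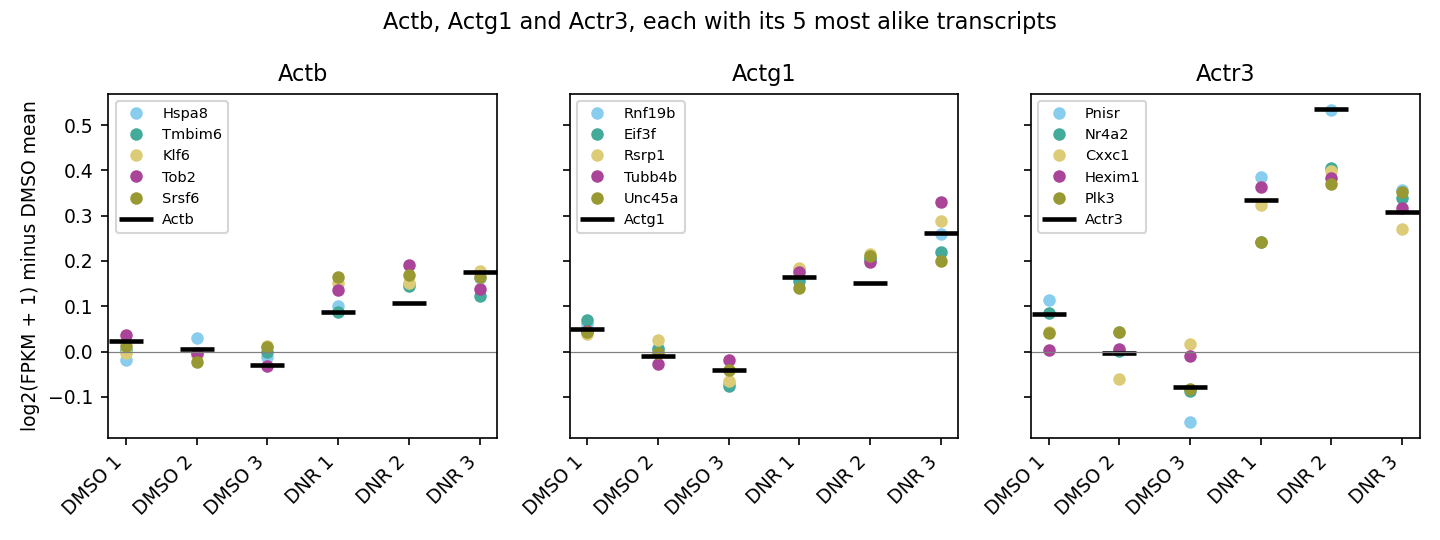
Values of log2(FPKM + 1) minus the DMSO mean in each of the 6 samples for Actb, Actg1 and Actr3 (black dashes) and for the 5 transcripts with the most similar profile to each (coloured points). Actb and Actg1 reach their highest value in DNR sample 3 and Actr3 in DNR sample 2, where Pnisr alone of its 5 comes as high.

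Other measures moved in the same samples. Among 36 markers of other cell types, 6 transcripts of 4 genes were listed, with a summed FPKM of 59.6 to 66.7 in DMSO and 74.4 to 82.1 in DNR. Nearly all of it was Csf1r, a macrophage marker, which averaged 61.5 ± 2.64 FPKM under DMSO and 73.3 ± 5.12 under DNR (SD, n = 3; limma, adjusted p = 0.0057). Without Csf1r the sums were 1.19 to 3.50 and 3.02 to 7.17 FPKM. Within them Itgax and Spib each had a transcript at 0 in every DNR sample and another at 0 in every DMSO sample. The sums cover the chosen markers alone and do not measure all messages of other cell types. The defining markers of natural killer cells, CD4 T cells, neutrophils, erythroid cells and platelets were not listed. In bulk RNA a change in the mixture of cells and a change of RNA per cell cannot be told apart, and the part of other cells in the higher level of the actin genes was not tested. Gene length moved with direction too. Of 55 called transcripts of genes spanning under 10 kb, 48 (87.3%) rose, against 114 of 321 (35.5%) for genes of 10 kb or more. Actb and Actg1 span 4.86 and 2.81 kb. Actr3 spans 42.8 kb, and of 55 called transcripts of genes from 30 to 60 kb, 18 (32.7%) rose. The 8 other actin list transcripts come from genes of 53.3 to 557 kb. The part of gene length in these differences was not tested.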

How the data were processed

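RNA sequencing values of 6 samples (3 DMSO, 3 DNR) were taken from 1 table deposited by the authors. The library kit was a SMARTER mRNA kit, per the labels' protocols, used on total RNA. The deposited values are log2(FPKM + 1): the file header names FPKM, and 2 to each value minus 1 gave 2 decimals throughout. The submitters' processing notes name GRCm38 and mm10; the sources used here state no aligner, quantification program, annotation or rule by which transcripts were listed. Each of the 6 value columns was assigned to a sample by its code.

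Accessions were matched without version to the RefSeq table of GRCm38.p6 (1013 of 1037 matched). Transcripts at 1 FPKM or more in at least 3 samples (388) were fitted with limma 3.58.1 in R 4.3.3 (treatment only, mean-variance trend, two-sided, Benjamini-Hochberg over all 388, threshold 0.05); the script was tested on simulated data. Differences are DNR minus DMSO on the log2(FPKM + 1) scale with pseudocount 1, which understates changes of low transcripts. No p is given for Actb, Actg1 and Actr3. The p-values set the group difference against the spread within groups, which may be technical. Depth is unknown, so no counting interval is given.

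The members, the gene lists and the rules were chosen with earlier results of these data known. Named are all transcripts of the 3 genes, up to 6 tested transcripts per actin list, listed reference, tubulin and SRF target genes, the 10 most abundant transcripts and the 5 most alike to each gene. Snx5, the less abundant Psap transcript, untested transcripts, Csf1r, Itgax and Spib were added after values were seen. Alternatives were a common median, quantile normalization, pseudocount 0.1, other filters, a replicate block and each sample left out. Of the actin list transcripts below the filter on low values, 1 is not reported here.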

Additional observations from a re-analysis of the deposited data

How the results depend on the processing

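With samples shifted to a common median the log2 differences of Actb, Actg1 and Actr3 were 0.31, 0.38 and 0.58, and with quantile normalization 0, 0 and 0.28. Relative to the summed FPKM of the table, chosen after seeing the data, Actb was at 0.058 and Actg1 at 0.13. Of 11 tested actin list transcripts, the 3 genes included, 11 passed as deposited, 5 with a common median and 4 with quantile normalization. Of all 388 tested transcripts 387, 273 and 320 passed. The 3 genes were chosen with their difference known. Quantile normalization fixes Actb and Actg1 at 0 by their rank, so neither could pass there. Nothing is therefore read from the counts out of 11. Of the 8 others, 1 rose and 1 fell with a common median, and 1 rose and 2 fell with quantile normalization. With a common median 61.2% of all calls were higher and 38.8% lower, and with quantile normalization 46.6% and 53.4%. Without a filter 566 of 1037 transcripts passed. Leaving out each sample in turn gave 0.10 to 0.14 for Actb, 0.16 to 0.22 for Actg1, 0.32 to 0.43 for Actr3 and 376 to 383 calls in all. The shares, ratios and remaining alternatives moved by less than 1 SD between samples. Samples with the same replicate number had nearly uncorrelated deviations from their group means (correlations -0.05, 0.05 and 0.04). That cannot show whether they shared a mouse or a preparation. With the replicate block 385 of 388 passed, the differences of the 3 genes were unchanged by construction at 0.12, 0.19 and 0.39, and no call in the actin lists was lost. Unknown depth limits every value.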
